A study of Gallus gallus with 16 samples.

Results

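Voltage-gated and related ion channels were described across the developing chicken spinal cord region. The members were all genes whose symbol places them among the potassium channel genes (KCN), the pore-forming and accessory sodium channel genes (SCN), the voltage-gated calcium channel genes (CACNA, CACNB, CACNG), the hyperpolarization-activated cation channels (HCN) and the cyclic-nucleotide-gated channels (CNG). The authors' deposited tables each listed 91 such genes among 21357 loci, of which 9225 carried a symbol. There were 60 potassium, 13 calcium and 10 sodium channel genes and 8 HCN or CNG genes. RefSeq (GRCg7b) holds 124 symbols that meet the same rule. Of these, 87 were listed and 37 were not listed under those symbols, among them CACNA1B, CACNA1D, KCND2, KCNMA1, KCNQ1, KCNH2 and SCN9A, which are not analysed here.

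RNA was sequenced from 16 wild-type chicken embryos, 1 library per embryo and 4 per group. The groups were nicotine at day 7, vehicle at day 7, nicotine at day 5 and vehicle at day 5 of incubation. Nicotine (nicotine hydrogen bitartrate, 30 ng/ml, scaled to egg weight) or its vehicle (sodium bitartrate) was injected at the blunt pole before incubation, so the embryos of every group came from an injected egg. Embryos were picked at random within a group, and the piece taken held the spinal cord from between mid-neck and the rear edge of the forelimb, so other tissue of that region can be included.

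Voltage-gated channels open when the membrane potential changes. Sodium channels carry the rising phase of the action potential, potassium channels repolarize the membrane and set its resting potential, and calcium channels couple electrical activity to transmitter release and to signalling inside the cell. HCN channels open on hyperpolarization and contribute to rhythmic firing, and CNG channels pass cations when cyclic nucleotides bind and are best known from photoreceptors and olfactory neurons. In the embryonic spinal cord, neurons acquire their channels step by step as they leave the cell cycle and begin to fire. Nicotine acts on nicotinic acetylcholine receptors, a separate family of ligand-gated channels that is not among the genes described here.

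Total counts ran from 21801247 to 29002315 per library. A set of 4 libraries, 1 in each group, lacked 57 loci that the other 12 held. These were nicotine day 7 replicate 2, vehicle day 7 replicate 2, nicotine day 5 replicate 4 and vehicle day 5 replicate 2. The number of channel loci called, and the tests of channel loci with an unadjusted p under 0.05, were computed with and without them. Other log2 fold changes, levels, sums and overlaps of groups come from all 16 libraries alone. The count matrix held 28 of the 91 channel genes under their gene identifiers, and 21 passed the low-count filter. Loci with a gene identifier held 0.334% of all counts in the matrix, the rest standing under assembled locus identifiers that no source used here pairs with a symbol, so a channel locus there may hold only some of its gene's reads. Levels are given as CPM, read counts scaled to the library's TMM-adjusted total and not to gene length, and are therefore never compared between genes. The labelled tissue could be checked only in part: no locus of the neuron or neural progenitor marker lists was in the matrix, and CHAT, a cholinergic marker of motor neurons, was detected in all 16 libraries.

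The first comparison asked how the channel genes differed between day 7 and day 5. Sodium and calcium channel genes were mostly higher at day 7 in both treatments, many potassium channel genes rose as well, and very few channel genes were lower. In the authors' deposited table for nicotine embryos, 40 of the 86 channel genes with an adjusted p were higher at day 7 and 4 were lower (adjusted p under 0.05), against 15.8% of 19701 loci called higher and 15.2% called lower. In the authors' deposited table for vehicle embryos, 45 of 89 were higher and 3 were lower, against 18% of 20528 loci called higher and 18.6% called lower. In either direction the share was 51.2% of channel genes and 31% of all loci in nicotine embryos, and 53.9% and 36.7% in vehicle embryos, in the authors' deposited tables. Loci with a symbol were called more often than that, with 40.7% in nicotine embryos and 47.7% in vehicle embryos, and 20.2% of them were called higher in each of the authors' deposited tables, beside 46.5% and 50.6% of the channel genes. The median channel gene stood at a log2 fold change of 0.66 in nicotine embryos and 0.74 in vehicle embryos in the authors' deposited tables, where the medians of all loci were 0.01 and 0.04. These tables carry no standard error and no level, so values taken from them are given without an error. RNA came from whole pieces of tissue, so fewer cells of a type and less RNA per cell cannot be told apart in any of these comparisons.

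**Figure D1:**
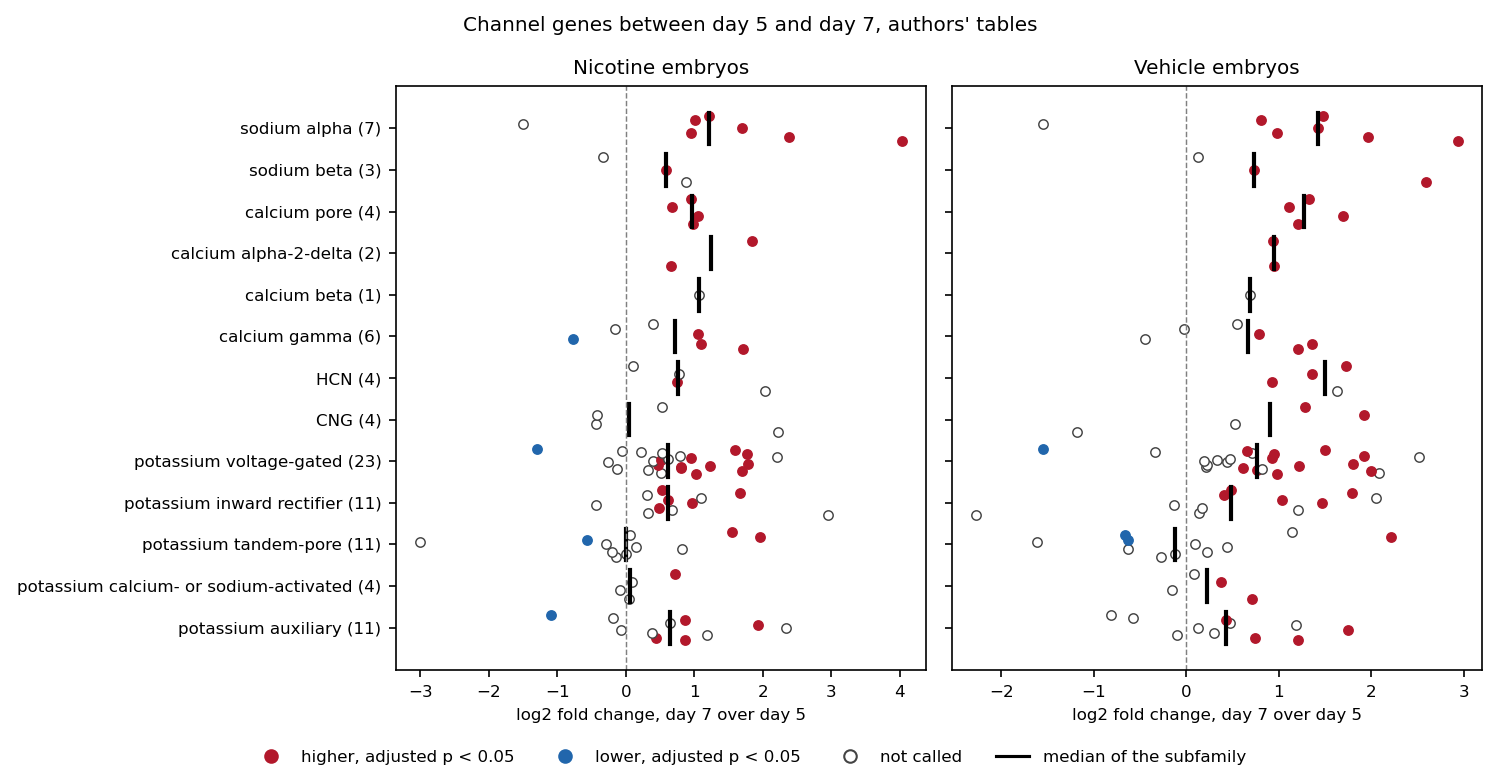
Log2 fold change (day 7 over day 5) of each of the 91 channel genes, in nicotine embryos on the left and vehicle embryos on the right, from the authors' tables; each row is a subfamily with its number of genes, filled points have an adjusted p under 0.05 and the black bar is the subfamily's median. Called genes lie mostly right of 0, with 40 higher and 4 lower in nicotine embryos and 45 higher and 3 lower in vehicle embryos, and tandem-pore potassium channels have a median near 0.

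Among the pore-forming sodium channel subunits, 6 of 7 were called higher at day 7 under each treatment in the authors' deposited tables. The subunits best known from central neurons were all among them. The share of all loci called higher was 15.8% in nicotine embryos and 18% in vehicle embryos. SCN1A had 5.54, 8.25, 7.75 and 7.00 CPM in nicotine day 7 libraries and 6.82, 6.10, 6.04 and 9.23 CPM in vehicle day 7 libraries. The day 5 values were 1.72, 1.62, 0.805 and 1.48 CPM in nicotine libraries and 2.33, 1.16, 1.93 and 1.95 CPM in vehicle libraries. Every day 7 library lay above every day 5 library. By edgeR's quasi-likelihood test, SCN1A was higher at day 7 by a log2 fold change of 2.33 ± 0.26 in nicotine embryos (SE, Benjamini-Hochberg adjusted p = 6.36e-05) and by 1.94 ± 0.26 in vehicle embryos (adjusted p = 7.26e-05).

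SCN2A, SCN3A and SCN8A were listed only in the tables. SCN3A, a subunit of embryonic and early neurons in mammals, was higher at day 7 by 1.70 in nicotine embryos and 1.42 in vehicle embryos in the authors' deposited tables (log2, adjusted p = 2.51e-11 and 1.71e-08). SCN8A, which in mammals clusters at axon initial segments and nodes, was higher by 1.22 and 1.48 in the authors' deposited tables, and SCN2A, another neuronal pore subunit, by 0.95 and 0.98, each in nicotine and in vehicle embryos. All 3 passed the adjusted p under both treatments.

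SCN10A, a sodium channel of sensory neurons of the dorsal root ganglia in mammals, had the largest positive log2 fold change among called channel genes in both of the authors' deposited day tables, 4.04 in nicotine embryos and 2.94 in vehicle embryos. The reads behind it were few. The counts were 8, 6, 9 and 10 in nicotine day 7 libraries against 2, 0, 0 and 0 at day 5, and 4, 61, 17 and 16 in vehicle day 7 libraries against 7, 0, 4 and 0 at day 5. A count of 0 allows up to 3 counts, or 0.101 to 0.142 CPM depending on the library. Over the group sums, day 7 exceeded day 5 by 15.9-fold in nicotine embryos (33 against 2 counts, exact 95% interval 4.06 to 137) and by 8.14-fold in vehicle embryos (98 against 11 counts, 4.35 to 16.8), intervals that cover counting error only. By edgeR's quasi-likelihood test the adjusted p was 0.0396 in nicotine embryos and 0.0409 in vehicle embryos. Vehicle day 7 replicate 2 held 61 of the vehicle day 7 counts: without it the log2 fold change was 1.91 (edgeR adjusted p = 0.188). Without the 4 libraries that stand apart it was 3.56 in nicotine embryos (edgeR adjusted p = 0.0681) and 1.46 in vehicle embryos (edgeR adjusted p = 0.312). The call also ended when any other library of the compared groups was left out, at an edgeR adjusted p of 0.0513 to 0.107, except nicotine day 5 replicate 1, vehicle day 5 replicate 1 and vehicle day 7 replicate 1.

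Some listed markers of dorsal root ganglion sensory neurons were also higher at day 7. Over all loci, 15.8% were called higher in nicotine embryos and 18% in vehicle embryos. In the authors' deposited tables, 1 of 4 listed markers was higher at day 7 in nicotine embryos (POU4F1, 2.10) and 3 of 4 in vehicle embryos (POU4F1, 1.89, RUNX3, 1.70, and RUNX1, 0.78). The part of sensory neurons in the result was not tested.

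SCN4A, the skeletal muscle sodium channel, was the 1 pore subunit that was not called. It had 0.0727 to 0.272 CPM in nicotine day 7 libraries and 0.284 to 0.564 CPM in nicotine day 5 libraries, and 0 to 0.251 CPM in vehicle day 7 libraries and 0.162 to 0.832 CPM in vehicle day 5 libraries. The log2 fold changes were -1.53 ± 0.75 SE in nicotine embryos (edgeR adjusted p = 0.144) and -1.60 ± 0.76 SE in vehicle embryos (edgeR adjusted p = 0.112).

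The accessory beta subunits, which modulate sodium channel gating and adhesion, differed among themselves. SCN3B was higher at day 7 under both treatments in the authors' deposited tables, by 0.58 in nicotine embryos and 0.74 in vehicle embryos (adjusted p = 7.23e-05 and 1.85e-07). By the authors' deposited tables, SCN2B was called in vehicle embryos (a log2 fold change of 2.59, adjusted p = 6.96e-05) and was at 0.88 in nicotine embryos (adjusted p = 0.230). SCN4B was called in neither of the authors' deposited day tables (-0.33 in nicotine and 0.13 in vehicle embryos).

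All 4 pore-forming calcium channel genes were called higher at day 7 under both treatments in the authors' deposited tables. The share of all loci called higher was 15.8% in nicotine embryos and 18% in vehicle embryos. CACNA1E, the pore of R-type channels, was the only calcium channel gene with counts. It had 25.1, 24.8, 23.7 and 23.7 CPM in nicotine day 7 libraries and 29.6, 28.9, 21.1 and 29.1 CPM in vehicle day 7 libraries. At day 5 it had 13.7, 9.55, 11.8 and 13.4 CPM in nicotine libraries and 7.39, 12.9, 4.13 and 10.4 CPM in vehicle libraries. No day 7 library fell to the level of any day 5 library. The log2 fold change was 1.00 ± 0.25 in nicotine embryos (SE, edgeR adjusted p = 0.00699) and 1.64 ± 0.25 in vehicle embryos (edgeR adjusted p = 0.000187).

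The other 3 pore genes were listed in the tables alone. CACNA1H, a T-type channel that opens at low voltage, was higher at day 7 by 0.95 in nicotine embryos and by 1.33 in vehicle embryos in the authors' deposited tables. CACNA1G, also T-type, was higher by 0.68 and 1.11, and CACNA1C, the L-type channel of heart, muscle and neurons, by 0.98 and 1.21, in nicotine and in vehicle embryos in the authors' deposited tables. The adjusted p of these genes ran from 4.80e-06 to 0.00242 in nicotine embryos and from 3.46e-11 to 1.55e-05 in vehicle embryos in the authors' deposited tables.

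Both listed alpha2delta genes, whose products carry calcium channels to the surface and to nerve terminals, were higher at day 7. CACNA2D2 stood at 0.66 in nicotine embryos and 0.95 in vehicle embryos, and CACNA2D3 at 1.84 and 0.94, in the authors' deposited tables, with all 4 values called. The single beta subunit listed, CACNB2, was not called (1.07 in nicotine and 0.69 in vehicle embryos in the authors' deposited tables).

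The gamma subunits split. CACNG2 and CACNG4, which in mammals accompany AMPA-type glutamate receptors, were higher at day 7 under both treatments in the authors' deposited tables (1.09 and 1.05 in nicotine embryos, 1.36 and 0.79 in vehicle embryos). CACNG3 was lower in nicotine embryos (-0.77, adjusted p = 0.00393) and was not called in vehicle embryos (-0.44, adjusted p = 0.117) in the authors' deposited tables. CACNG5 and CACNG7 were called in neither of the authors' deposited tables. CACNG1, the gamma subunit of the skeletal muscle calcium channel, was higher by 1.72 in nicotine embryos and 1.21 in vehicle embryos in the authors' deposited tables. Beside it, 4 of 7 listed skeletal muscle markers were higher and 0 lower at day 7 in nicotine embryos, and 1 was higher and 2 were lower in vehicle embryos, in the authors' deposited tables. Over all loci, 15.8% were called higher and 15.2% lower in nicotine embryos, and 18% and 18.6% in vehicle embryos. MYOD1, 1 of the 7, was higher in both of the authors' deposited tables (1.85 in nicotine and 1.89 in vehicle embryos), while 2 others were lower in vehicle embryos. SCN4A, the skeletal muscle sodium channel, went the other way without a call (-1.5 in nicotine and -1.55 in vehicle embryos in the authors' deposited tables). No muscle marker of the list had a locus in the matrix, and the part of muscle in the result was not tested.

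In the HCN and CNG family, 1 of 8 genes was called in nicotine embryos and 5 of 8 in vehicle embryos, all higher at day 7, in the authors' deposited tables. Over all loci, 15.8% and 18% were called higher. Only 1 of the 8 genes had an adjusted p for the difference between the treatments in day change, so that contrast is largely untested. HCN2 was called under both treatments (0.74 in nicotine and 0.93 in vehicle embryos in the authors' deposited tables). HCN3 stood at 0.78 in nicotine embryos (adjusted p = 0.0862) and 1.36 in vehicle embryos (adjusted p = 0.00124) in the authors' deposited tables.

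HCN4, the main pacemaker channel of the heart, had 2.55, 2.43, 2.90 and 2.25 CPM in nicotine day 7 libraries and 1.89, 0.740, 3.74 and 3.96 CPM in nicotine day 5 libraries. In vehicle embryos it had 4.89, 4.35, 3.02 and 3.84 CPM at day 7 and 1.12, 2.24, 0.321 and 1.50 CPM at day 5. The day groups overlapped in nicotine embryos and did not overlap in vehicle embryos. The log2 fold change was -0.023 ± 0.49 in nicotine embryos (SE, edgeR adjusted p = 0.981) and 1.62 ± 0.50 in vehicle embryos (SE, edgeR adjusted p = 0.0186).

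CNGA4, a modulatory subunit of the olfactory channel in mammals, had 0.947, 0.727, 1.04 and 0.382 CPM in nicotine day 7 libraries and 0.820, 1.09, 1.37 and 1.00 CPM in nicotine day 5 libraries. In vehicle embryos it had 1.40, 1.41, 1.38 and 1.13 CPM at day 7 and 0.179, 0.687, 0.367 and 0.203 CPM at day 5. The vehicle day groups were separate and the nicotine day groups overlapped. The log2 fold change between days was -0.46 ± 0.40 in nicotine embryos (SE, edgeR adjusted p = 0.425) and 1.86 ± 0.42 in vehicle embryos (SE, edgeR adjusted p = 0.00272). The levels rested on 9 to 41 counts per library outside the vehicle day 5 group, where the counts were 4 to 19.

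CNGB1, the beta subunit of the rod channel, had 1.44 to 4.00 CPM in nicotine day 7 libraries and 1.58 to 3.20 CPM in nicotine day 5 libraries, against 2.68 to 3.94 CPM and 0.963 to 1.77 CPM in vehicle embryos at day 7 and day 5. Its log2 fold change was 0.51 ± 0.32 SE in nicotine embryos (edgeR adjusted p = 0.252) and 1.26 ± 0.32 SE in vehicle embryos (edgeR adjusted p = 0.00654). CNGA1 lay below the low-count filter, and CNGA2 passed it without a call in either day comparison.

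**Figure D2:**
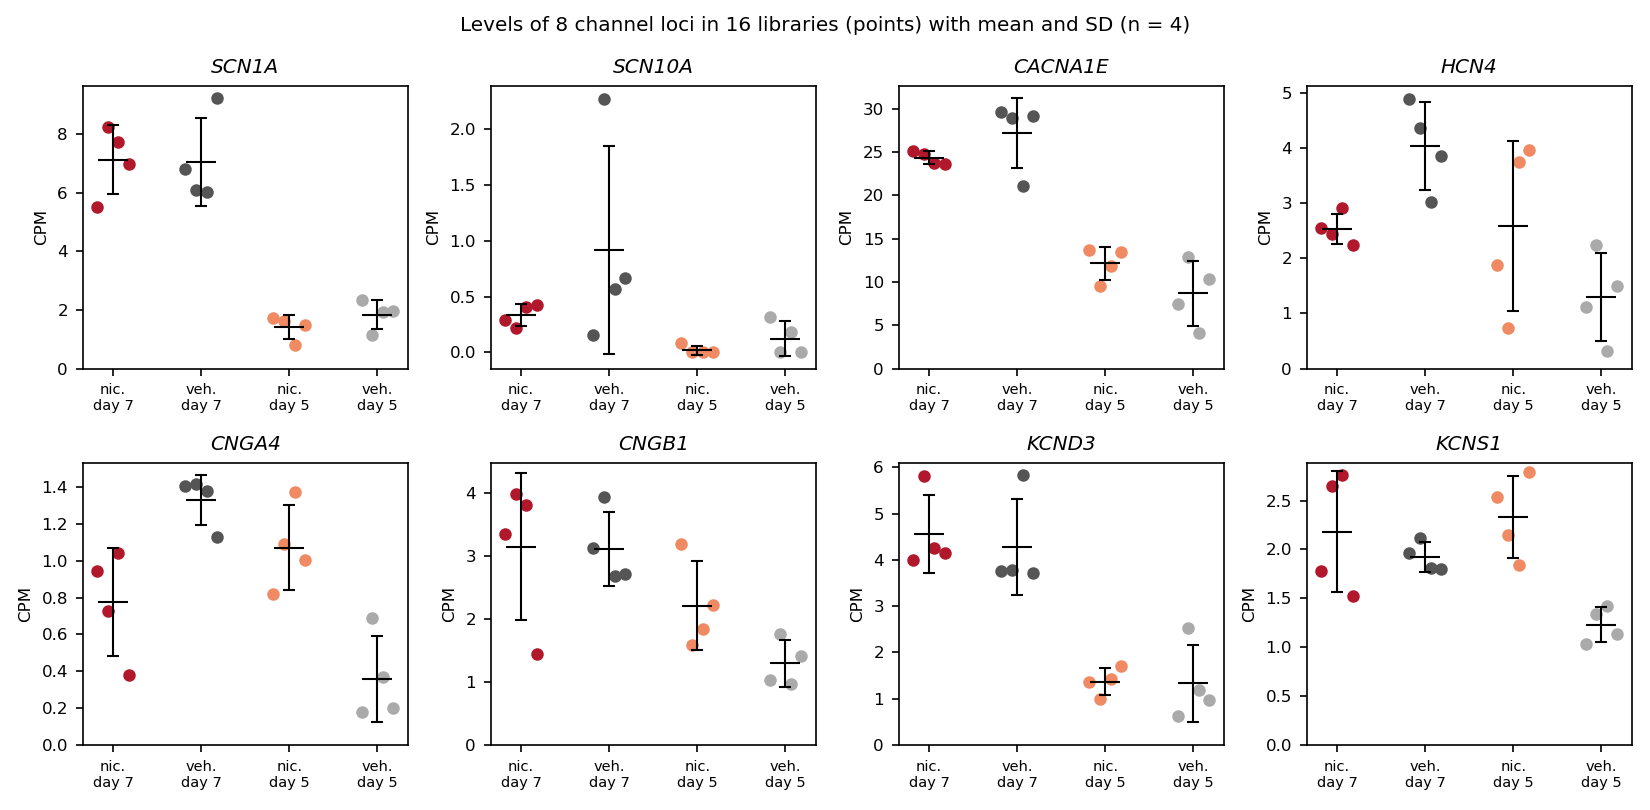
CPM of 8 channel loci in each of the 16 libraries (points), with the mean and SD of the 4 libraries in each group; groups run from nicotine day 7 and vehicle day 7 on the left to nicotine day 5 and vehicle day 5 on the right. SCN1A, CACNA1E and KCND3 are higher in all day 7 libraries than in all day 5 libraries. The lowest group mean is in nicotine day 5 libraries for SCN1A and SCN10A, and in vehicle day 5 libraries for the other loci drawn.

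Potassium channel genes were the largest family, with 23 higher and 3 lower at day 7 in each of the authors' deposited tables (55 with an adjusted p in nicotine embryos, 58 in vehicle embryos). The share called higher among voltage-gated genes with an adjusted p was 50% in nicotine and 47.8% in vehicle embryos. It was 55.6% and 50% among inward rectifiers, 40% under each treatment among auxiliary subunits, and 25% and 50% among calcium- or sodium-activated channels. Tandem-pore channels had 20% and 9.09%. Beside these stand 15.8% and 18% of all loci called higher in the authors' deposited tables. Of the 23 voltage-gated genes, 22 had an adjusted p in nicotine embryos and 23 in vehicle embryos. Under each treatment 11 were called higher and 1 lower in the authors' deposited tables. KCNA2, an axonal delayed rectifier, was higher at day 7 by 1.70 in nicotine embryos and 2.00 in vehicle embryos in the authors' deposited tables (adjusted p = 1.43e-09 and 4.44e-13). KCNA1, which often assembles with it, was at 1.03 and 0.99 in the authors' deposited tables. KCNC1, a channel of fast-firing neurons, was at 1.23 and 1.22, and KCNS2, a silent subunit that modifies other pores, at 1.59 and 1.50, in nicotine and vehicle embryos in the authors' deposited tables.

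KCND3, an A-type channel that delays firing, had 4.01, 5.81, 4.26 and 4.16 CPM in nicotine day 7 libraries and 3.77, 3.79, 5.84 and 3.72 CPM in vehicle day 7 libraries. It had 1.35, 0.986, 1.42 and 1.70 CPM in nicotine day 5 libraries and 0.627, 2.53, 1.19 and 0.975 CPM in vehicle day 5 libraries. Under each treatment all day 7 libraries lay above all day 5 libraries. KCND3 was higher at day 7 by 1.74 ± 0.34 in nicotine embryos (SE, edgeR adjusted p = 0.00173) and 1.67 ± 0.34 in vehicle embryos (SE, edgeR adjusted p = 0.00149).

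KCNS1, a silent subunit that modifies KCNB pores, had 1.53 to 2.77 CPM in nicotine day 7 libraries and 1.85 to 2.79 CPM in nicotine day 5 libraries, and 1.80 to 2.12 CPM in vehicle day 7 libraries and 1.03 to 1.42 CPM in vehicle day 5 libraries. The day groups were separate in vehicle embryos alone. Its log2 fold change was -0.10 ± 0.22 SE in nicotine embryos (edgeR adjusted p = 0.799) and 0.64 ± 0.22 SE in vehicle embryos (edgeR adjusted p = 0.0360). The vehicle call ended when any of 7 of the 8 vehicle libraries was left out, vehicle day 5 replicate 3 being the exception (edgeR adjusted p = 0.0504 to 0.0991).

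KCNQ3, a subunit of the M current that holds neurons below firing threshold, was higher at day 7 by 1.77 in nicotine embryos and 0.95 in vehicle embryos (adjusted p = 1.27e-09 and 0.00134) in the authors' deposited tables. KCNS3, another silent subunit, was the voltage-gated gene that was lower at day 7, by -1.29 in nicotine embryos and -1.55 in vehicle embryos in the authors' deposited tables (adjusted p = 0.00857 and 0.00134).

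Of the 11 inward rectifiers, which stabilize the resting potential, 9 had an adjusted p in nicotine embryos and 10 in vehicle embryos. Under each treatment 5 were called higher and 0 lower in the authors' deposited tables. Among all loci, 15.8% were called higher in nicotine embryos and 18% in vehicle embryos. KCNJ2, a strong inward rectifier, was higher at day 7 by 0.96 in nicotine embryos and 1.47 in vehicle embryos in the authors' deposited tables (adjusted p = 3.99e-08 and 2.16e-18). KCNJ3 and KCNJ6, pores gated by G proteins, were at 0.62 and 1.67 in nicotine embryos and at 1.04 and 1.80 in vehicle embryos in the authors' deposited tables. KCNJ8, a pore of ATP-sensitive channels, was at 0.54 and 0.49 in the authors' deposited tables, and its relative KCNJ11 was not called.

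Tandem-pore channels, which carry background potassium current, went both ways. KCNK3 was higher by 1.96 in nicotine embryos and 2.21 in vehicle embryos in the authors' deposited tables (adjusted p = 2.03e-09 and 2.98e-11). KCNK2, a mechanosensitive member, was lower by -0.57 and -0.63 in the authors' deposited tables (adjusted p = 0.00384 and 0.000814). KCNK5 was at 0.07 in nicotine embryos (adjusted p = 0.879) and -0.67 in vehicle embryos (adjusted p = 0.0105) in the authors' deposited tables. The median of the 11 genes was -0.0034 in nicotine embryos and -0.12 in vehicle embryos in the authors' deposited tables. Of the 5 tandem-pore loci in the matrix, 4 passed the low-count filter and none was called by edgeR in either day comparison. At an unadjusted p under 0.05, KCNK9 in nicotine embryos (1.46 ± 0.66 SE, edgeR adjusted p = 0.109) was the exception, and DESeq2 called it (adjusted p = 0.0391). The authors' deposited tables also called KCNK9 higher in nicotine embryos (1.56, adjusted p = 0.0374) and not in vehicle embryos (1.145, adjusted p = 0.118).

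Calcium- or sodium-activated potassium channels numbered 4. KCNN1 and KCNN3, small-conductance channels that shape the pause after a spike, were called in vehicle embryos (0.71 and 0.37) and not in nicotine embryos (0.04 and 0.09) in the authors' deposited tables. KCNT2, a sodium-activated channel, was called in nicotine embryos (0.72, adjusted p = 0.00236) and not in vehicle embryos (0.08, adjusted p = 0.816) in the authors' deposited tables.

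Among the 11 auxiliary subunits, KCNAB1 and KCNAB2, cytoplasmic partners of the KCNA pores, rose together. KCNAB1 was at 0.86 in nicotine embryos and 1.21 in vehicle embryos (adjusted p = 1.67e-12 and 1.27e-23), and KCNAB2 at 0.44 and 0.74, in the authors' deposited tables. KCNIP4, a partner of KCND pores, was at 0.87 and 0.43 in the authors' deposited tables and was called in both. KCNIP1, of the same group, was called in nicotine embryos (1.93, adjusted p = 0.00788) and not in vehicle embryos (1.18, adjusted p = 0.106) in the authors' deposited tables. KCNE4 was called in vehicle embryos (1.75, adjusted p = 0.0118) and not in nicotine embryos (-0.07, adjusted p = 0.954), and KCNMB4, a beta subunit of large-conductance channels, was lower in nicotine embryos (-1.09, adjusted p = 0.0381) and not called in vehicle embryos (-0.81, adjusted p = 0.119), in the authors' deposited tables.

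The nicotine and vehicle day comparisons share no library. Of the genes called higher, 33 were common to both, which is 82.5% of the 40 in nicotine embryos and 73.3% of the 45 in vehicle embryos in the authors' deposited tables. The matching overlap over all loci was not computed, so this one is not read as particular to channel genes. KCNK2 and KCNS3 were lower in both. A call under one treatment and not under the other does not show that the treatments differed, and the test of that difference is given after the nicotine comparisons.

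**Figure D3:**
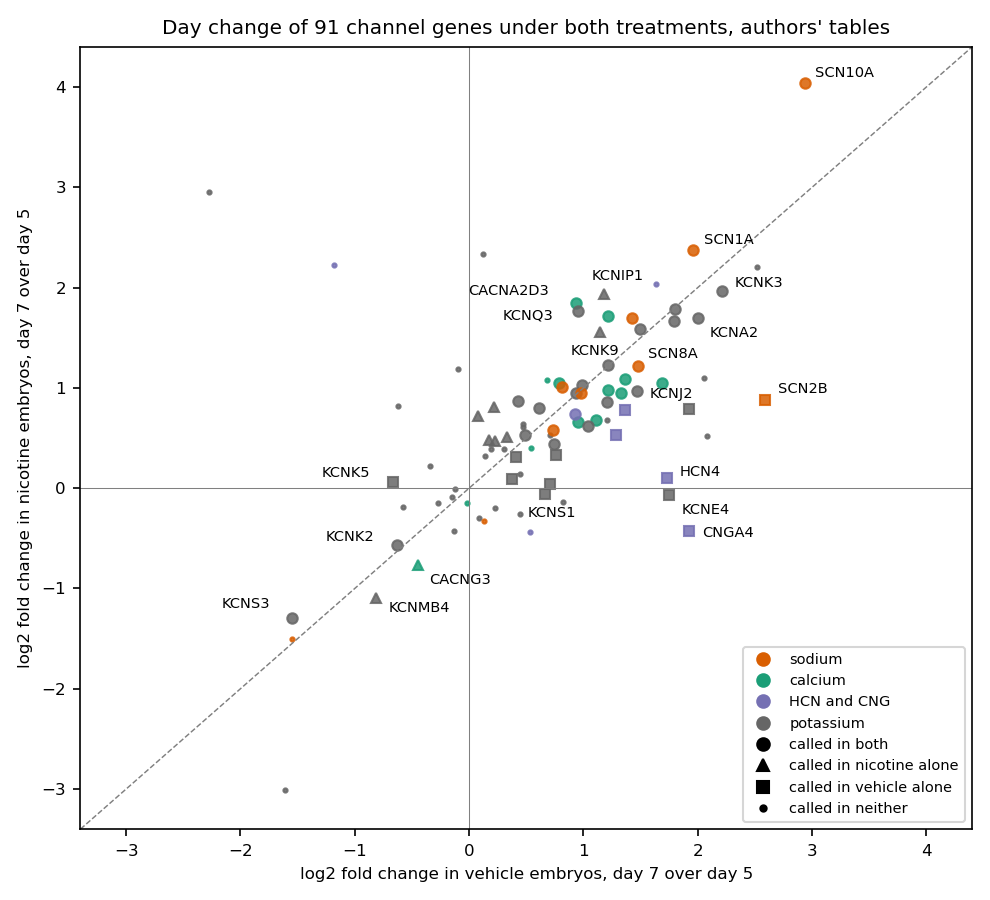
Log2 fold change (day 7 over day 5) of the 91 channel genes in nicotine embryos (vertical axis) against vehicle embryos (horizontal axis), from the authors' tables; colour gives the family, shape gives the treatment in which a gene was called, and the dashed line marks equal change. The 33 genes called higher in both lie in the upper right, CNGA4, HCN4 and KCNE4 lie between -0.43 and 0.10 in nicotine embryos, and KCNK2 and KCNS3 lie in the lower left.

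In the count matrix, 5 of 21 channel loci were called higher at day 7 in nicotine embryos and 8 of 21 in vehicle embryos by edgeR's quasi-likelihood test with Benjamini-Hochberg adjustment, and 0 were called lower. Over all loci, 13.1% were called higher and 16.5% lower in nicotine embryos, 29.6% in either direction, and 17.6% were called higher and 19.6% lower in vehicle embryos, 37.2% in either direction. CACNA1E, KCND3, SCN1A and SCN10A were called under both treatments, and CNGA4, CNGB1, HCN4 and KCNS1 in vehicle embryos. The libraries of day 7 and day 5 did not overlap for 6 of 21 loci in nicotine embryos and 8 of 21 in vehicle embryos, against 32.6% and 36.9% of all loci. The summed level of the 21 loci was 54.1 to 64.9 CPM in nicotine day 7 libraries, 57.2 to 69.4 CPM in vehicle day 7 libraries, 26.5 to 39.2 CPM in nicotine day 5 libraries and 19.8 to 34.0 CPM in vehicle day 5 libraries. The day groups did not overlap in this sum under either treatment. CACNA1E alone gave a mean of 24.3 CPM in nicotine day 7, 27.2 in vehicle day 7, 12.1 in nicotine day 5 and 8.69 in vehicle day 5 libraries. The sum therefore does not weigh the 21 loci evenly. Among the 12 tested loci called in neither day comparison were CNGA2, KCNF1, KCNG4, KCNIP3, KCNJ16, KCNK13, KCNK15, KCNK17, KCNK9 and SCN4A. The 7 loci below the filter, CNGA1, KCNA10, KCNE2, KCNE5, KCNH8, KCNJ4 and KCNK18, had 0 to 17 counts per library and were not tested there. Of them, KCNA10 was called higher at day 7 in vehicle embryos by DESeq2 and by edgeR without the low-count filter. That call rested on 28 counts over the vehicle day 7 libraries and 6 over the vehicle day 5 libraries.

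The second comparison asked what nicotine changed at day 5. One channel gene was called. In the authors' deposited table, CACNA2D3 was lower in nicotine embryos by a log2 fold change of -0.67 (adjusted p = 0.0240). It was 1 of 38 channel genes with an adjusted p, or 2.63%, beside 2.7% of 11908 loci called in either direction and 1.95% called lower. An unadjusted p under 0.05 was found for 19 of 91 channel genes and 3114 of 21357 loci in the authors' deposited table. By family these were 5 of 8 HCN or CNG genes, 3 of 13 calcium, 10 of 60 potassium and 1 of 10 sodium channel genes, and the authors' deposited table gave no HCN or CNG gene an adjusted p. The channel median was -0.03, and that of all loci -0.00063, in the authors' deposited table. CACNA2D3 had no locus in the count matrix, so its values in single libraries are not analysed here.

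Of the genes without a call, those with the smallest p in each family are given here, so every family appears by choice. KCNB2, a delayed rectifier of neurons (-0.56, adjusted p = 0.0892), and KCNK5 (-0.64, adjusted p = 0.0851) were the potassium channel genes with the next smallest adjusted p in the authors' deposited table. CACNA2D2 stood at 0.23 (adjusted p = 0.153) and CACNA1E at 0.48 (adjusted p = 0.213) by the authors' deposited table. The authors' deposited table gave no adjusted p for KCNS1, CNGA4, CNGA1, CNGB1, SCN2B and SCN10A, which had log2 fold changes of 0.90, 1.57, -3.45, 0.77, 1.52 and -2.57 and unadjusted p of 0.000635, 0.000730, 0.0191, 0.0248, 0.0108 and 0.0967. In the count matrix, CNGA1 had only 2 counts over the nicotine day 5 libraries and 22 over the vehicle day 5 libraries. The smallest p among sodium channel genes with an adjusted value was that of SCN3A (-0.34, adjusted p = 0.374) by the authors' deposited table. Adjusting the table's p-values again over all 21357 loci added KCNS1 (adjusted p = 0.0489) to CACNA2D3.

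The counts of KCNS1 and CNGA4 can be read library by library. KCNS1 had 2.54, 2.15, 1.85 and 2.79 CPM in nicotine day 5 libraries, against 1.03, 1.34, 1.42 and 1.14 CPM in vehicle day 5 libraries. CNGA4 had 0.820, 1.09, 1.37 and 1.00 CPM in nicotine day 5 libraries, against 0.179, 0.687, 0.367 and 0.203 CPM in vehicle day 5 libraries. For both loci every nicotine library lay above every vehicle library, and they were the only 2 of 21 channel loci whose groups did not overlap at day 5, beside 4.38% of all loci. By edgeR's quasi-likelihood test KCNS1 stood at 0.92 ± 0.22 (SE, adjusted p = 0.222) and CNGA4 at 1.55 ± 0.42 (SE, adjusted p = 0.228), so neither passed. The adjusted p over the alternatives tried ran from 0.126 to 0.647 for KCNS1 and from 0.126 to 0.647 for CNGA4 with edgeR. In all, edgeR called 0 of the 21 channel loci and 0% of 18394 loci at day 5, while 4 channel loci and 2747 loci had an unadjusted p under 0.05. DESeq2 also called 0 channel loci. A few cell type markers were called at day 5 too. ISL1 (0.65), a motor neuron marker, and NKX6-1 (0.51), a marker of ventral progenitors, were higher in nicotine embryos, and CSF1R (-0.46), of macrophages, was lower, in the authors' deposited table. Each was the only marker called among the 4 listed for its cell type, beside 0.756% of all loci called higher and 1.95% called lower. The median of the 4 listed motor neuron markers was 0.07. CHAT, the 1 of 5 motor neuron markers with a locus in the matrix, went the opposite way to ISL1. It was at 0.757 to 2.01 CPM in nicotine day 5 libraries and 2.46 to 3.30 CPM in vehicle day 5 libraries, so every nicotine library was lower. Their part in the channel values was not tested.

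The third comparison asked what nicotine changed at day 7. One channel gene was called, and it was not the one called at day 5. KCNJ2 was lower in nicotine embryos by a log2 fold change of -0.59 in the authors' deposited table (adjusted p = 0.0341). It was 1 of 91 channel genes, beside 0.393% of 21357 loci called in either direction and 0.173% called lower. An unadjusted p under 0.05 was found for 2 of 91 channel genes and 1139 of 21357 loci in the authors' deposited table. CDH1, an epithelial cadherin, was the 1 cell type marker called at day 7 (-0.61) in the authors' deposited table. KCNJ2 was not called at day 5 (-0.08, adjusted p = 0.782), and the difference between the days was -0.50 (adjusted p = 0.194) in the authors' deposited tables.

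The smallest p in each other family belonged to CNGA4 (-0.78), HCN4 (-0.66) and CNGA2 (-0.73), to CACNA2D3 (0.24), CACNA1G (-0.26) and CACNG5 (0.21), and to SCN10A (-1.47), SCN2A (-0.31) and SCN4B (-0.22), none of which passed the adjusted p in the authors' deposited table. Among potassium channel genes, KCNE4 stood at -1.05 (adjusted p = 0.973) by the authors' deposited table. HCN4 and CNGA4 were the 2 of 21 loci whose nicotine and vehicle libraries did not overlap at day 7, beside 5.26% of all loci. HCN4 had 2.55, 2.43, 2.90 and 2.25 CPM in nicotine day 7 libraries, against 4.89, 4.35, 3.02 and 3.84 CPM in vehicle day 7 libraries, and CNGA4 had 0.947, 0.727, 1.04 and 0.382 CPM in nicotine day 7 libraries, against 1.40, 1.41, 1.38 and 1.13 CPM in vehicle day 7 libraries. All nicotine libraries were lower at both loci. The log2 fold changes were -0.67 ± 0.48 for HCN4 and -0.78 ± 0.40 for CNGA4 (SE, edgeR adjusted p = 1 for both). By edgeR, 0 of 21 channel loci and 0% of 18394 loci were called at day 7. No channel locus and 858 loci in all had an unadjusted p under 0.05 by edgeR, and DESeq2 called 0 channel loci.

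The fourth comparison asked whether the nicotine effect differed between the days. CACNA2D3 was called. Its nicotine effect was higher at day 7 than at day 5 by 0.91 on the log2 scale in the authors' deposited table (adjusted p = 0.0300), which equals the day change of 1.84 in nicotine embryos less that of 0.94 in vehicle embryos, before rounding, since all of these values are built from the same 4 groups. It was 1 of 45 channel genes with an adjusted p, beside 2.24% of 12733 loci called in either direction and 1.56% called higher. At an unadjusted p under 0.05 there were 14 of 91 channel genes and 2979 of 21357 loci in the authors' deposited table. None of the genes called in the day comparison of 1 treatment alone was called here, but not all of them could be. CNGA4, CNGB1, HCN4, KCNS1, KCNK9 and SCN2B, among others, had no adjusted p for the difference, so the missing call says nothing about them. Of the genes with an adjusted p, KCNN1 had -0.67 (adjusted p = 0.158), KCNK5 0.73 (adjusted p = 0.186) and KCNB2 0.60 (adjusted p = 0.224) by the authors' deposited table.

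The authors' deposited table gave no adjusted p to the channel genes with the differences largest in size, which went both ways: KCNJ1 (5.23), CNGA1 (3.41), CNGA4 (-2.35), KCNE5 (2.21), KCNE4 (-1.82), SCN2B (-1.71) and HCN4 (-1.63). In the count matrix, CNGA1 and KCNE5 lay below the low-count filter. Summed over the libraries of a group, CNGA1 had 2 to 22 counts and KCNE5 had 1 to 8. Adjusting again over all loci, CNGA4 reached an adjusted p of 0.0293. In the counts, CNGA4 stood at -2.33 ± 0.57 (SE, edgeR adjusted p = 0.237) and HCN4 at -1.65 ± 0.69 (SE, edgeR adjusted p = 0.334). All 4 pore-forming calcium channel genes had a negative difference, between -0.24 and -0.64, and none was called in the authors' deposited table. By edgeR, 0 of 21 channel loci and 0% of 18394 loci were called for the difference. There were 4 channel loci and 2521 loci with an unadjusted p under 0.05 by edgeR, and DESeq2 called 0 channel loci.

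**Figure D4:**
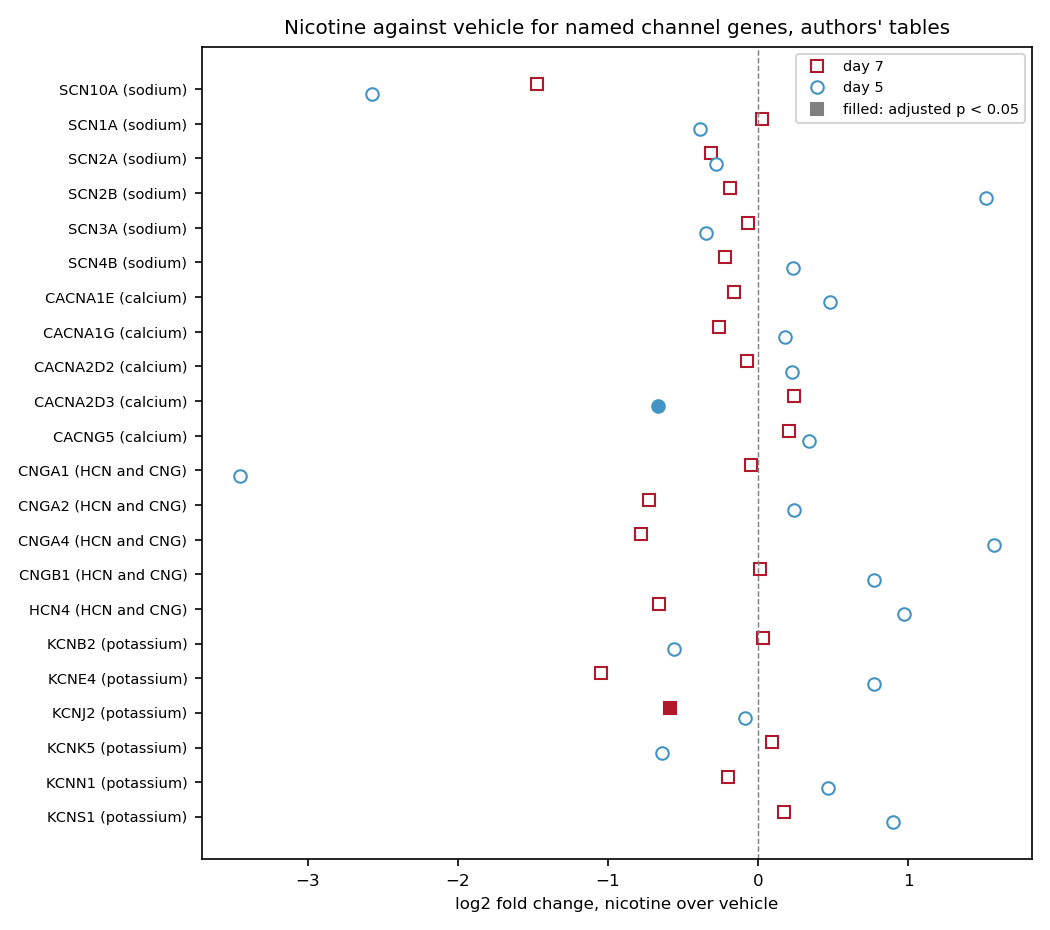
Log2 fold change (nicotine over vehicle) at day 7 (squares) and day 5 (circles) of the channel genes named for the nicotine comparisons and for their difference between days, from the authors' tables; filled symbols have an adjusted p under 0.05. CACNA2D3 at day 5 (-0.67) and KCNJ2 at day 7 (-0.59) are filled, and the widest spread belongs to genes without an adjusted p at day 5, such as CNGA1 (-3.45) and SCN10A (-2.57).

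The log2 fold changes moved with the length of the gene on the chromosome. Spans from RefSeq (GRCg7b) were found for 87 of 91 channel genes (95.6%), with a median of 27.0 kb beside 19.3 kb over the named genes. As a description across genes, which are not independent and share the same libraries, Spearman's rho between span and log2 fold change in the authors' deposited tables was -0.30 over the channel genes at day 5 and -0.36 over 8973 named genes. For the nicotine effect at day 7 rho was 0.06 over the channel genes and 0.13 over the named genes in the authors' deposited table. For the day change it was 0.32 and 0.37 in nicotine embryos and 0.10 and 0.11 in vehicle embryos, and for the difference between days 0.34 and 0.34, in the authors' deposited tables. CACNA2D3 spans 409.7 kb and KCNJ2 10.1 kb. After a smooth trend over span was removed, CACNA2D3 stood at -0.48 for nicotine at day 5 and 0.68 for the difference, and KCNJ2 at -0.58 for nicotine at day 7. For the day change in nicotine embryos, the removal took CACNA1H from 0.95 to 0.44, CACNA2D2 from 0.66 to 0.27 and CACNA2D3 from 1.84 to 1.13. The value of CACNG1, a short gene, went up from 1.72 to 1.86. These remainders from the authors' deposited tables carry no test, and the part of gene span in the calls was not tested.

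**Figure D5:**
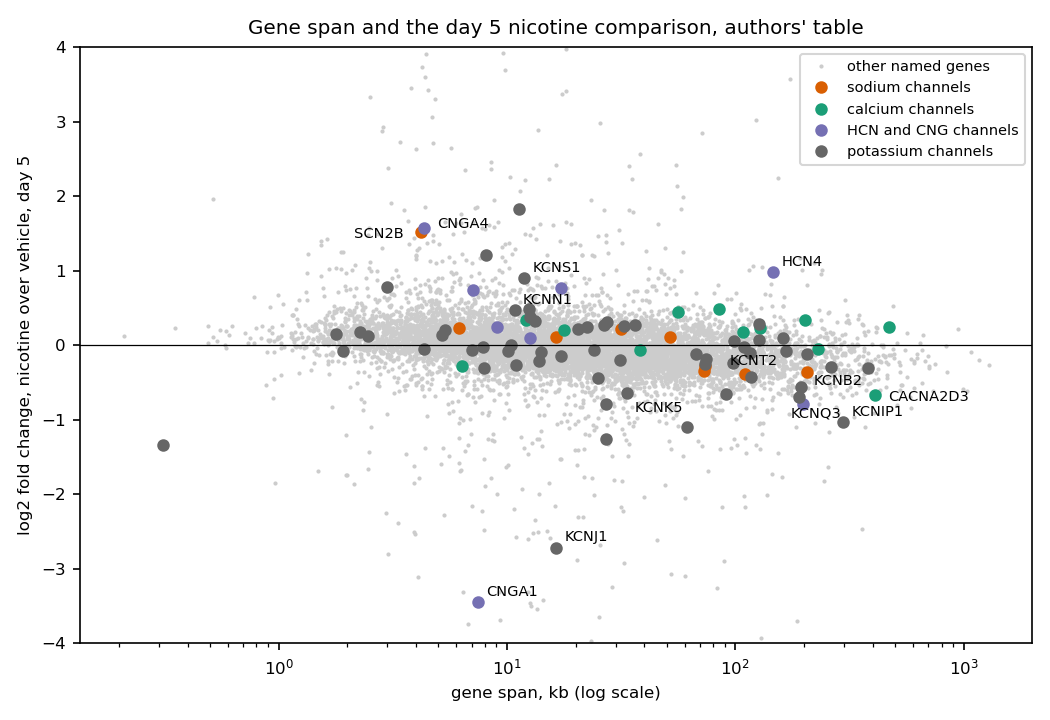
Log2 fold change (nicotine over vehicle, day 5) from the authors' table against gene span in kb on a log scale, for the channel genes by family (large points) and the other named genes (small grey points, drawn within 4 log2 units of 0). Longer genes tend to sit lower, with Spearman's rho -0.30 over the 87 channel genes with a span, and CACNA2D3 lies at -0.67 and 409.7 kb.

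Other genes that work with these channels were read from fixed lists. The counts below stand beside 15.8% of all loci called higher and 15.2% lower at day 7 in nicotine embryos. In vehicle embryos the shares were 18% and 18.6%, and 20.2% of loci with a symbol were called higher under each treatment. Whether a list exceeded these shares was not tested. Scaffolds of the axon initial segment and node of Ranvier, where sodium and potassium channels gather, had 8 of 15 higher and 0 lower at day 7 in nicotine embryos and 7 higher and 1 lower in vehicle embryos in the authors' deposited tables. CNTN1, an axonal adhesion protein, was at 1.77 in nicotine embryos and 1.55 in vehicle embryos in the authors' deposited tables. ANK3, the ankyrin that anchors channels at the initial segment, was called in nicotine embryos (0.64, adjusted p = 3.69e-05) and not in vehicle embryos (0.20, adjusted p = 0.261) by the authors' deposited tables. Partners of voltage-gated calcium channels had 6 of 10 higher and 0 lower under each treatment in the authors' deposited tables, among them NRXN3 (1.19 in nicotine and 1.35 in vehicle embryos) and RIMS2 (1.04 and 0.87), which act at presynaptic release sites. Partners of potassium channels had 4 of 8 higher in nicotine embryos and 3 of 8 in vehicle embryos, with 0 lower, and DPP6, an accessory subunit of KCND pores, was at 1.12 under both treatments in the authors' deposited tables.

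Chloride channels had 7 of 14 higher and 1 lower in nicotine embryos and 8 of 15 higher and 2 lower in vehicle embryos in the authors' deposited tables. Other cation channels had 10 of 27 higher and 0 lower in nicotine embryos and 10 higher and 4 lower in vehicle embryos in the authors' deposited tables. Pumps and chloride transporters had 2 of 11 higher and 1 lower in nicotine embryos and 4 higher and 2 lower in vehicle embryos in the authors' deposited tables. In nicotine embryos 15.8% of all loci were called higher and 15.2% lower, and whether these counts differed from those shares was not tested. Regulators of neuronal channel genes had 2 of 5 higher in nicotine embryos and 3 of 5 in vehicle embryos, with 0 lower, in the authors' deposited tables. RBFOX1, a splicing factor of neurons, was at 0.96 and 0.61 in the authors' deposited tables.

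Under nicotine at day 5, 1 of 13 scaffold genes and 2 of 18 other cation channel genes with an adjusted p were called lower in the authors' deposited table, and no gene of the other lists was called, beside 1.95% of all loci called lower and 0.756% called higher. The called genes were SPTBN1, a spectrin (-0.36, adjusted p = 0.0351), RYR3, a calcium release channel of internal stores (-1.09, adjusted p = 0.000334), and STIM2, a sensor of store calcium (-0.51, adjusted p = 0.0213). RYR3 and STIM2 were also called for the difference between days, at 1.59 and 0.65, with CLCN5, a chloride transporter (0.40), in the authors' deposited table. No gene of these lists was called at day 7 in the authors' deposited table.

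Some of the listed neuron markers were higher at day 7, and ELAVL4 was called under neither treatment. Over all loci, 15.8% were called higher and 15.2% lower in nicotine embryos in the authors' deposited tables. In vehicle embryos 18% were called higher and 18.6% lower. SNAP25, a protein of synaptic vesicle release, was higher at day 7 by 1.49 in nicotine embryos and 1.28 in vehicle embryos in the authors' deposited tables. NEFM stood at 0.38 (adjusted p = 0.163) and 0.96 (adjusted p = 2.76e-05), NEFL at 0.18 (adjusted p = 0.456) and 0.59 (adjusted p = 0.00139), and ELAVL4 at 0.37 (adjusted p = 0.373) and 0.02 (adjusted p = 0.971), in nicotine and in vehicle embryos in the authors' deposited tables. That is 1 of 4 listed neuron markers higher in nicotine embryos and 3 of 4 in vehicle embryos. Of 4 neural progenitor markers, 3 were lower in nicotine embryos, and 2 were lower and 1 higher in vehicle embryos, in the authors' deposited tables: HES5 stood at -0.82 in nicotine and -1.31 in vehicle embryos. Of 4 listed cartilage markers, 2 were higher in nicotine embryos and 3 in vehicle embryos, with 0 lower, in the authors' deposited tables, and ACAN stood at 2.59 in nicotine and 2.61 in vehicle embryos. Their part in the day change of the channel genes was not tested.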

How the data were processed

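Per the labels, reads came from total RNA of 16 embryos. Tools in the submitters' processing notes, listed there with no role, are StringTie 1.3.3b, Bowtie2 2.3.2, HISAT2 2.0.5, DESeq2, FastQC 0.11.5 and Trim Galore 0.4.4. No source used here states the genome build, the gene annotation or whether counting used strand, so overlapping or antisense genes cannot be separated. The authors deposited whole-number read counts per locus, not normalized. They also deposited 5 tables of their own comparisons, holding for each locus the log2 fold change, the fold itself (a ratio on the linear scale), the p-value and its adjusted form. In 4 tables an adjusted p of exactly 1 beside a smaller p was read as no adjusted value. It stood at 829 to 9449 loci per table, of which 32 to 546 had an unadjusted p under 0.05. Values of named genes come mostly from these tables.

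The count test was that of edgeR 4.0.16 under R 4.3.3 (low-count filter filterByExpr, TMM scaling, quasi-likelihood test, all 16 libraries in 1 fit of 4 group means, Benjamini-Hochberg adjusted p under 0.05 over 18394 loci). CPM used TMM-scaled totals. DESeq2 1.42.0, RLE scaling, other filters, a covariate for or removal of the 4 libraries that stand apart, a replicate block, fits of only the groups compared and leaving out each library were alternatives. The code was tested on simulated counts with known changes at better-covered loci, so recovery at low-count channel loci was not tested. Replicates are separate embryos per the labels. No sample column was left unmapped.

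Named genes were those called in a nicotine comparison, the 3 smallest p per family in each comparison, the 10 largest called changes per direction in each day comparison, every channel locus past the filter and up to 4 genes per list and comparison. Others named beside them (among them KCNA1, KCNC1, KCNS2 and the genes called under 1 treatment) were chosen after their values were seen. The members, lists and tests were chosen with earlier results of these data known. Results of some channel and marker genes are not reported here.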

Additional observations from a re-analysis of the deposited data

Results flagged for a closer look

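In 5 of 72 groups of 4 libraries, 1 library stood far from the other 3; chance gives about 1 in 20 groups. SCN10A was at 0.0820 CPM in nicotine day 5 replicate 1 and at 0 in the other 3, a difference of 2 counts. KCND3 was at 5.81 CPM in nicotine day 7 replicate 2, against 4.01 to 4.26 CPM, and at 5.84 CPM in vehicle day 7 replicate 3, against 3.72 to 3.79 CPM. CACNA1E was at 21.1 CPM in vehicle day 7 replicate 3, against 28.9 to 29.6 CPM. CNGA4 was at 1.13 CPM in vehicle day 7 replicate 4, against 1.38 to 1.41 CPM.

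The nicotine effect on CACNA2D3 differed between the days, by 0.91 on the log2 scale (day 7 minus day 5) in the authors' deposited table, where the difference itself was tested (adjusted p = 0.0300).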

How the results depend on the processing

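No result changed direction among those called. In the authors' deposited tables, asking also for a log2 fold change of at least 1 in size left 22 channel genes called between days in nicotine embryos, 27 in vehicle embryos and 0 in each nicotine comparison and their difference. An adjusted p under 0.01 left 0 in those 3, one under 0.1 gave 3 at day 5, and adjusting again over all loci gave 2 at day 5 and 2 for the difference. The channel median was 0.62 in vehicle embryos after the span trend was removed, and 0.016 for the difference (against -0.10) over members with an adjusted p alone. In the counts, a fit of only the groups compared called 3 loci between days in nicotine embryos. Leaving out 1 library at a time gave 3 to 5 there, 6 to 8 in vehicle embryos and 0 to 0 in the nicotine comparisons and the difference. With the replicate block, 4 loci were called between days in nicotine embryos, 6 in vehicle embryos and 0 elsewhere. The numbers did not pair the libraries: correlations of same-numbered deviations ran from -0.239 to 0.355, no pair of groups had all above 0.1, and 6 of 16 libraries matched best with their own number. DESeq2 called 6 between days in nicotine embryos and 9 in vehicle embryos, adding KCNK9 in the former and KCNA10 in the latter. CACNA1E, KCND3 and SCN1A were called in both day comparisons in every setting run, and CNGA4, CNGB1 and HCN4 in vehicle embryos in every setting that tested them. Beside single libraries left out, KCNS1 lost its vehicle day call without the low-count filter, under the block and with the 4 libraries that stand apart left out (edgeR adjusted p = 0.0537, 0.0567 and 0.116). SCN10A lost its vehicle call without the filter, with the covariate for those 4 libraries and under the block (edgeR adjusted p = 0.0609, 0.0683 and 0.0832) and its nicotine call under the block (0.0632). The filter removed SCN10A, so that it was not tested, in the fits of only the groups compared and at 1 CPM in 4 libraries. Low counts limit SCN10A, CNGA4 and the 7 loci below the filter, and genes with no locus in the matrix have no library values here.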
